A study of Mus musculus with 502 samples.

Results

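The comparison is between the last timepoints of hypothermic preservation, day 4 and day 3, within library pool IM834. Its members are 19 cells of day 4 and 82 cells of day 3, out of the 502 cells of the series, taken by timepoint and pool as the cell titles give them. All came from kidneys of CD1 wild type mice about 3 weeks old that were kept whole in the organ preservative Hypothermosol-FRS at 4 °C, for 3 or for 4 days, before dissociation; cells negative for propidium iodide and positive for Cd45 were sorted singly, and those with enough cDNA (at least 2 ng) went on to sequencing by a SmartSeq2-type protocol, which reads whole transcripts and carries no molecular identifiers. By the study's methods, parts of the kidneys of a single mouse were dissociated for each of these timepoints, and no label ties a cell to an animal. Each timepoint is therefore 1 sample, preservation time cannot be told apart from the animal or the library preparation, and no test was made; all spreads below are over cells, which are not replicates.

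Resident macrophages are among the most abundant Cd45+ cells of the kidney. They make the complement component C1q, depend on the receptor Csf1r and display antigen on MHC class II. The transcripts of a cell differ widely in lifetime: messages of immediate early genes, cytokines and many splicing regulators turn over within minutes to hours and have to be made again, whereas those for actin, ferritin or ribosomal proteins are long-lived. In the cold, both synthesis and breakdown of RNA are slowed.

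Reads on genes ran from 3590 to 1196748 per cell at day 3 (median 520104) and from 33090 to 901343 at day 4 (median 417385). No pair of index sequences was shared by the 2 timepoints, and 10 of the 19 day 4 cells carried a second index number that day 3 also used. Transcripts of the Y chromosome (Ddx3y, Eif2s3y, Kdm5d or Uty at 10 rpm or more, rpm being a gene's part of the reads on genes of that cell, scaled to a total of 1000000) were read in 27 cells of day 3 and in 4 of day 4, and Xist, the RNA of the inactive X, in 0 cells of either. The other day 4 cells of the series carried Xist and no Y transcript, 8 of the 14 cells of pool IM790 and both cells of pool IM793, so the day 4 cells of the series came from more than 1 animal. Within pool IM834, Y transcripts were read in 32 of 81 fresh cells and Xist in 1, and Xist in 55 of 75 day 1 cells, none of which had a Y transcript. Fresh and day 1 values, which serve below as a reference, thus include cells of different sex and are no time course of 1 animal. Wells of the same name in pools IM834 and IM790 (6 pairs) had correlations of 0.247 to 0.336 (median r 0.297, on the log scale across genes), within the range of the other 260 pairs (median 0.269, highest 0.392).

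Cells carrying C1q transcripts were the largest group at both timepoints. A cell was counted for a marker set where at least 2 of 3 genes were at 10 rpm or more. The C1q set (C1qa, C1qb, C1qc) took in 56 of 82 cells at day 3, 68.3% (57.1 to 78.1%), and 11 of 19 at day 4, 57.9% (33.5 to 79.7%); intervals here and below are exact Clopper-Pearson intervals at the 95% level and cover counting error only. These intervals overlap. The B cell set (Cd79a, Cd79b, Ms4a1) held 5 cells at day 3 and 2 at day 4, and the set of group 2 innate lymphoid cells (Nmur1, Il1rl1, Gata3) 5 and 3. The T cell set (Cd3e, Cd3d, Cd3g) and the monocyte set (Ly6c2, Ccr2, Plac8) each held 7 cells at day 3, 8.54% (3.5 to 16.8%), and 0 at day 4, where a count of 0 in 19 cells has an upper limit of 17.6%; the loss of either set was not detectable with so few cells. The NK set held 2 cells and 0. No cell of either timepoint fell in the neutrophil, cDC1, epithelial or erythroid set. At day 3, 4 cells fell in more than 1 set and were counted in each, and doublets were not called.

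In no marker set were 5 cells of day 3 and 3 cells of day 4. The 3 cells of day 4 had the fewest genes of the timepoint. One (well A3) had 54700 reads on 75 genes, 90.7% of them mitochondrially encoded. Well C6 held 33090 reads on 331 genes, 29.8% of them mitochondrially encoded. The third (well A8) had 302661 reads on 468 genes and 1.95% mitochondrially encoded, with Tmsb4x, Actb and Eef1a1 among its leading genes.

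Fewer genes were read per cell at day 4. The number of genes with at least 1 read was 418, 1672.5 and 3402 (lowest, median and highest cell) at day 3 and 75, 1130 and 2100 at day 4. Fewer than 1000 genes were read in 14 of 82 cells at day 3 (17.1%, 9.7 to 27%) and in 8 of 19 at day 4 (42.1%, 20.3 to 66.5%), and 2000 genes or more in 24 cells and in 1. Within C1q cells, whose reads had medians of 520104 and 518606, the median was 1672.5 genes at day 3 and 1237 at day 4, and after every cell was thinned to 100000 reads it was 1490 against 1044. The ranges overlap, from 699 to 3402 genes at day 3 and from 692 to 1852 at day 4. The 2 cells of the B set at day 4 had 1130 and 1303 genes against 1210 to 3216 in the 5 of day 3, and the 3 innate lymphoid cells 809, 1915 and 2100 against 1864 to 2396.

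**Figure D1:**
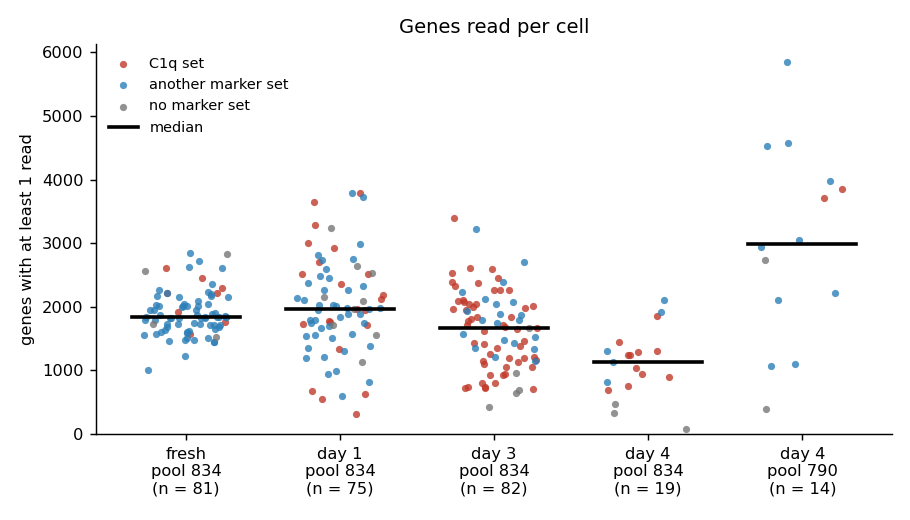
Genes with at least 1 read in each cell (points) of fresh, day 1, day 3 and day 4 tissue of pool IM834 and of day 4 tissue of pool IM790, with the median of each group (black bar) and cells coloured by marker set. The day 4 cells of pool IM834 have a median of 1130 genes, below the 1672.5 of day 3, and 1 of the 19 reaches 2000.

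The reads of a day 4 cell were spread over fewer transcripts. The 100 most abundant genes took a median of 42.7% of a cell's reads at day 3 and 54.2% at day 4, and in C1q cells 42.9% and 54.2%. Mitochondrially encoded genes took 3.02% and 4.6%, with 3 of 82 and 4 of 19 cells at 10% or more; in C1q cells the medians were 3% and 3.96%. Genes for cytosolic ribosomal proteins had 2.56% and 3.29% of reads and the 18S rRNA gene 8.92% and 9.79%. As a gauge of loss that uses neither timepoint, a core of genes was taken from the C1q cells of fresh and day 1 tissue of the same pool, each gene being present in 75% of them or more at a depth of 100000 reads. A C1q cell of day 3 showed a median of 83.7% of them (56.1 to 97.7%), and one of day 4 71.9% (57 to 87.3%). Here, as in the thinned counts, 1 cell of day 3 and the wells A3 and C6 of day 4 were too shallow and were left out. With a stricter core of genes present in 90% of those cells the medians lay closer, 4.08 percentage points apart instead of 11.8.

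Averaged over single cells, most genes had a lower level at day 4. Levels are means over cells of log2(rpm + 1), differences are day 4 minus day 3 on that scale, and a gene is called higher or lower where its difference is 1 or more in size, among genes with a read in 25% or more of the cells of day 3 or of day 4. A cell without a read counts as 0 on this scale, so a gene that few cells carry at a high level can differ more here than in summed reads. A gene that passed the filter through 1 timepoint alone leans toward a higher value there, in the lists below as among all genes. Over all cells 69 of 1846 genes (3.74%) were higher and 821 (44.5%) lower, with a median difference of -0.87. In C1q cells 11.6% of 2227 genes were higher and 37.8% lower, with a median of -0.53. In the summed reads of a timepoint these same genes were spread more evenly, with 11.4% higher and 25.9% lower over all cells (median -0.07) and 18.2% higher and 29.8% lower in C1q cells (median -0.05). With all genes of 50 or more summed reads, most of them under the filter, 15.8% of 11039 were higher and 59.6% lower over all cells, and 15.8% and 65.5% of 9591 in C1q cells (median -2.70). Of 83 genes followed through the alternative scalings with a difference of 1 or more in C1q cells, 51 kept one in the same direction in summed reads. Counts of listed genes in summed reads are set below against the 29.8%, since they too are of genes past the filter. Against the medians of the log scale, 292 genes were higher and 296 lower over all cells, and 490 and 537 in C1q cells. Because the cell types of the timepoints were not in equal shares, and these 3 cells are in the first comparison, gene by gene results are given for C1q cells unless stated. Of 576 genes that 50% or more of the day 3 cells carried, 37.5% were under that share at day 4 and 3 had no read, and of 413 genes that 50% or more of the day 4 cells carried, 53 were under it at day 3.

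Malat1 and Gas5 were among the 10 lowest genes in C1q cells. Malat1, an abundant noncoding RNA of nuclear speckles (chr19:5795690-5802672, minus strand, GRCm38), had 0, 4150.1 and 21066 rpm (lowest, median and highest cell) at day 3 and 0, 1.93 and 14597 rpm at day 4. It was read in 48 of 56 cells at day 3 and 6 of 11 at day 4, and the mean log value went from 9.35 ± 4.95 to 5.22 ± 6.05 (SD over cells), a difference of -4.14. In the summed reads of all C1q cells, where the cells with most Malat1 count most, it had 3838 and 2301 rpm. In fresh and day 1 C1q cells the means were 11.66 and 11.43. Gas5, a noncoding host of small nucleolar RNAs that is degraded during translation, was read in 41 of 56 cells at day 3 and 5 of 11 at day 4, with a difference of -4.29. Rn7sk, the 7SK RNA that holds the elongation factor P-TEFb inactive, was read in 38 of 56 cells at day 3 and 3 of 11 at day 4 (-1.64). Of the 6 noncoding RNA genes past the filter 4 were lower and 0 higher, and in summed reads 3 and 0, where 37.8% and 29.8% of all genes were lower.

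Immediate early genes were lower as a group. Of the 14 listed genes, which encode AP-1 and other fast-induced factors, 13 passed the filter, 9 were lower and 0 higher, with a median difference of -2.73 against -0.53 for all genes, of which 37.8% were lower. Fos, a subunit of AP-1, had 0, 336 and 32514 rpm (lowest, median and highest cell) at day 3 and 0, 0 and 17342 rpm at day 4. It was read in 37 of 56 cells at day 3 and 4 of 11 at day 4, shares of 66.1% (52.2 to 78.2%) and 36.4% (10.9 to 69.2%) that overlap in their intervals. Its mean log value went from 6.39 ± 5.74 to 3.39 ± 5.66 (-3.0). In summed reads its difference was -0.19. Single cells of day 4 reached levels well within the range of day 3, but the median cell of day 4 had no read. Its partner Jun was read in 34 of 56 cells at day 3 and 4 of 11 at day 4 (-2.33), Egr1, a zinc finger factor, in 31 of 56 cells at day 3 and 3 of 11 at day 4 (-3.43), Btg2, an antiproliferative cofactor of deadenylation, in 33 of 56 cells at day 3 and 2 of 11 at day 4 (-4.10), and Ier2 in 26 of 56 cells at day 3 and 2 of 11 at day 4 (-2.92). Btg2 and Ier2 passed the filter through day 3 alone, which leans them toward a lower value at day 4. Fos, Jun and Egr1 passed it at both timepoints. Dusp1, a phosphatase of MAP kinases, differed by -2.85, and Zfp36, which binds AU-rich elements and directs decay, by -2.73. Among the smallest differences were those of Klf2 (-0.55) and Atf3 (-0.34). In summed reads 9 of the 13 (69.2%) were lower and 0 higher, with a median of -1.63 against 29.8% and -0.05 for all genes past the filter, and Zfp36 lay at 0.04 when DESeq2 size factors scaled them.

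These transcripts were not reduced evenly over the cells. At least 7 of the 14 immediate early genes were read in 30 of 56 cells (53.6%, 39.7 to 67%) at day 3 and in 3 of 11 cells (27.3%, 6.02 to 61%) at day 4. The 3 cells of day 4 (wells B1, C10 and G2) had 12, 12 and 10 of the genes, at a summed 5987, 24742 and 27180.1 rpm, and the other 8 cells had 0 to 4 of them, at a sum of 0 to 2165 rpm. The same 3 cells held 12161, 14597 and 5308 rpm of Malat1, whose next highest values were 829.9 rpm (well E11) and 80.5 rpm (well E3). At day 3 all 30 cells with at least 7 of the genes had Malat1 at 100 rpm or more, 11 cells had Malat1 without them, and 15 had neither; at day 4 the counts were 3, 1 and 7. In fresh tissue 7 of 9 C1q cells, and at day 1 16 of 22, had both. This count was chosen after the values were seen. The 3 cells had 1852, 1239 and 1449 genes, against 692 to 1303 in the other 8, and 4.45%, 7.03% and 2.29% of reads on mitochondrial genes.

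**Figure D2:**
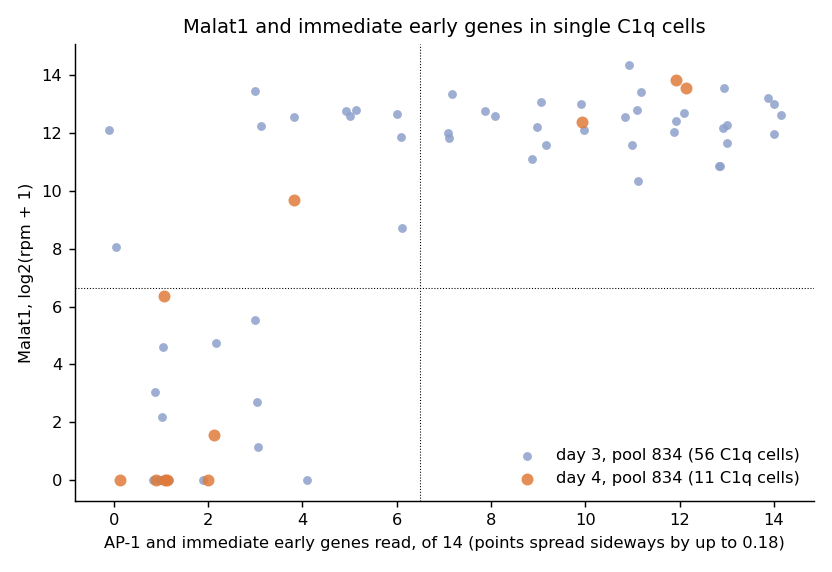
Level of Malat1, as log2(rpm + 1), against the number of the 14 immediate early genes read, in each C1q cell of day 3 (56) and day 4 (11); dotted lines mark 7 genes and 100 rpm. No cell has 7 or more genes without Malat1, and 7 of the 11 cells of day 4 are low in both, against 15 of 56 at day 3.

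Cytokine and NF-kB response genes were lower too. Of the 9 of 12 listed genes past the filter, 8 were lower and 0 higher, beside 37.8% of all genes lower, with a median of -2.09; in summed reads 5 of the 9 (55.6%) were lower, with a median of -1.32, against 29.8% and -0.05 for all genes past the filter. Over genes of 50 or more summed reads, filter or not, the median of -2.70 lies below that of either list. The chemokine Ccl2 was read in 24 of 56 cells at day 3 and 0 of 11 at day 4, and its share went from 42.9% (29.7 to 56.8%) to 0%, with an upper limit of 28.5%. Tnf, the inflammatory cytokine, was read in 16 of 56 cells at day 3 and 0 of 11 at day 4. Cxcl2, which attracts neutrophils, was read in 21 of 56 cells at day 3 and 2 of 11 at day 4, the 2 cells of day 4 at no more than 2.5 rpm against up to 7447 rpm at day 3. Nfkbia, the inhibitor of NF-kB, was read in 32 of 56 cells at day 3 and 3 of 11 at day 4 (-2.41), and Ccl3, another chemokine, in 28 of 56 cells at day 3 and 3 of 11 at day 4 (-2.08). Ccl2, Tnf and Cxcl2 passed the filter through day 3 alone, which leans them toward a lower value at day 4. Nfkbia and Ccl3 passed it at both timepoints. Il1b had means of 7.18 in fresh, 4.95 in day 1, 2.28 in day 3 and 1.25 in day 4 cells (day 1 being of the other sex).

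Some short-lived messages, that of Tnf among them, are known for AU-rich elements, runs built on the letters ATTTA in the 3′ UTR that recruit decay factors. Shown are the 30 bases richest in ATTTA in the 3′ UTR of the members of the immediate early, NF-kB and apoptosis lists that passed the filter and hold at least 5 copies, 6 of 28 members, to show what the copies counted below look like, from the longest coding transcript of GENCODE M21 on GRCm38, 5′ to 3′ on the transcribed strand, with ATTTA in capitals.
Tnf (chr17:35199677-35199706, minus strand): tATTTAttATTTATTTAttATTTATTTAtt
Cxcl2 (chr5:90905328-90905357, plus strand): ATTTATTTAtctatgtATTTATTTATTTAt
Ccl3 (chr11:83648074-83648103, minus strand): tgaaattttATTTAATTTAatcctattggt
Mcl1 (chr3:95662590-95662619, plus strand): ATTTAtccttgatcatagtttgcttATTTA
Btg2 (chr1:134076017-134076046, minus strand): aATTTAtttgtagatgtgtgcaatATTTAc
Klf6 (chr13:5868010-5868039, plus strand): tgtataagctgtATTTAcaaatcgcagtgg
The whole 3′ UTR holds 11 copies in Cxcl2, 8 in Tnf and in Mcl1, 7 in Klf6 and 5 in Btg2 and in Ccl3. Among 21635 coding genes with a 3′ UTR, 62.7% hold at least 1 copy and 20.7% at least 5, a share like that of the 28 members, counting overlapping copies on the transcribed strand.

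On the log scale of single cells, the difference across genes went with the level and with features of the transcript. A cell without a read counts as 0 there, and these trends were not computed in summed reads. Genes were taken here that were read in at least 25% of fresh and day 1 C1q cells of the pool, so that neither timepoint compared chose them (2830 genes). By their level in those cells the median difference was -0.37 below 2, -0.69 from 2 to 4, -1.06 from 4 to 6, -0.86 from 6 to 8, -0.57 from 8 to 10 and 0.10 for the 29 genes above 10. Among coding genes at a level of 6 or more, the median was -0.19 for the 110 without ATTTA in the 3′ UTR, -0.76 for the 63 with 1 or 2 copies, -1.46 for the 39 with 3 to 5 and -2.37 for the 19 with 6 or more, a thinly filled bin. The same genes by transcript length gave 0.18 under 1000 bases (38 genes), -0.59 from 1000 to 2000, -1.17 from 2000 to 4000 and -1.64 from 4000 on (21 genes). Length and copies of ATTTA rise together, with a median length of 1314.5 bases in the first ATTTA bin and 3833 in the last, and their parts were not separated. In genes at a level of 2 to 6 the medians by ATTTA lay between -0.59 and -0.91, and those by length were -0.30, -0.63, -0.87 and -0.82. Over all 2548 coding genes with a 3′ UTR they were -0.51, -0.62, -0.83 and -0.74 by ATTTA. By length these coding genes had -0.12, -0.53, -0.76 and -0.69, so the trends were weaker there and did not fall further in the last bin.

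**Figure D3:**
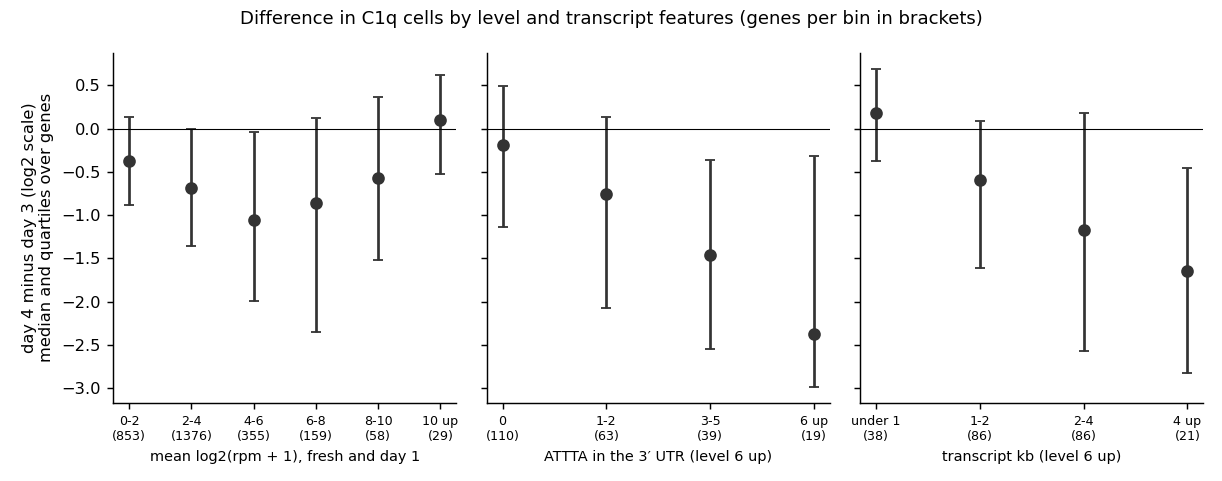
Median difference between day 4 and day 3 in C1q cells (points, log2 scale, with quartiles over genes as bars) by the level in fresh and day 1 C1q cells, by copies of ATTTA in the 3′ UTR and by transcript length in kb, the last 2 for genes at a level of 6 or more; genes per bin are in brackets. The median goes from -0.19 with no ATTTA to -1.46 with 3 to 5 copies, and from 0.18 for the shortest transcripts to -1.64 for the longest.

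Some splicing regulators were low. Srsf2, an SR protein that binds exonic enhancers, was among the 10 lowest genes, read in 35 of 56 cells at day 3 and 4 of 11 at day 4 (-4.31). Of 17 SR protein, Clk kinase and cyclin L genes, a list put together after Srsf2 and others were seen to be low and so a description only, 12 passed the filter, 9 were lower and 0 higher, and in summed reads 6 and 0, beside 37.8% and 29.8% of all genes lower. Srsf5 and Srsf7 differed by -3.84 and -2.99, Clk1, a kinase of SR proteins, by -3.23, and Ccnl1, a cyclin of transcriptional kinases, by -3.72. Srsf9 (+0.09) and Srsf11 (-0.59) differed by less than 1. Ddx5, an RNA helicase of the splicing and transcription machinery outside the lists, went from 42 of 56 to 5 of 11 cells (-4.19).

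Other genes among the 10 lowest in C1q cells, of those with a read in 50% or more of the cells of day 3 or of day 4, were enzymes and trafficking proteins. But for Malat1 and Unc93b1, the 10 met that rule through day 3 only. Unc93b1, which escorts Toll-like receptors to endosomes, went from 49 of 56 to 6 of 11 cells, with medians of 1102 and 1.97 rpm (-4.56). Cyth4, an exchange factor for ARF GTPases in blood cells, went from 41 of 56 to 3 of 11 (-4.53), and Mmp13, a collagenase, from 33 of 56 to 3 of 11 (-4.27). Rps2-ps13 and Gm26917, also among the 10, are a pseudogene and a locus that overlaps ribosomal RNA, and their counts are uncertain because reads can come from near-identical copies. Rps2-ps13 followed no steady course in time, with means of 5.19 in fresh, 0.05 in day 1, 4.74 in day 3 and 0 in day 4 C1q cells. The cause was not tested.

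Macrophage genes had members on both sides of the threshold. Of 15 listed resident macrophage genes past the filter, 2 were higher and 4 lower, with a median of -0.38, where 11.6% and 37.8% of all genes were. C1qa, C1qb and C1qc chose the cells and are given only as a description, with differences of -1.04, -0.38 and +0.10. Csf1r, the receptor for M-CSF, had 0, 2921 and 9787 rpm (lowest, median and highest cell) at day 3 and 19.7, 2956 and 6103 rpm at day 4, a difference of -0.03, and was read in 50 of 56 cells at day 3 and 11 of 11 at day 4. Apoe, a lipid carrier, differed by +0.05 with medians of 7028 and 8129 rpm, and Cd81, a tetraspanin, by +0.12. Fcgr1, the high-affinity IgG receptor, was higher, read in 24 of 56 cells at day 3 and 7 of 11 at day 4 (+2.82), as was the lysosomal glycoprotein Cd68 (+1.06). Sepp1, selenoprotein P (-2.80), Adgre1, the F4/80 antigen (-2.77), and Mrc1, the mannose receptor (-2.45), were lower, though in summed reads Sepp1 (-0.31), Mrc1 (-0.47) and Cd68 (0.94) were short of the threshold. The difference of Adgre1 turned to 0.58 in summed reads, where the 3 cells of day 4 that held it reached up to 5379 rpm. In summed reads 2 of the 15 genes were higher and 0 lower, beside 18.2% and 29.8% of all genes.

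Ptprc, which encodes the Cd45 by which the cells were sorted, was read in fewer cells. Over all cells it was read in 66 of 82 cells at day 3 and 8 of 19 at day 4 (-4.10) and in C1q cells in 42 of 56 cells at day 3 and 5 of 11 at day 4 (-3.35), where the means were 7.02 and 3.68. In summed reads the differences were -0.77 and -0.59, short of the threshold. The GTPase gene Rac2 differed by -3.99. Of 10 leukocyte genes past the filter in C1q cells, those 2 were lower and 1 was higher, where 37.8% and 11.6% of all genes were, and in summed reads Rac2 alone was lower (-1.73) and 0 were higher. Tyrobp, the adaptor DAP12, was read in all 11 cells of day 4 at 276 to 1499 rpm (+0.48), Lcp1, an actin bundler, in 10 (+0.22), and Laptm5, a lysosomal membrane protein of blood cells, in 11 (+1.09, which became -0.19 among C1q cells with at least 1000 genes). At least 1 of the 12 leukocyte genes was read in 17 of the 19 cells of day 4.

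Antigen presentation genes were mixed. H2-Aa, the α chain of the class II molecule I-A, was higher, at 0, 7857 and 23188 rpm (lowest, median and highest cell) at day 3 and 4501, 11154 and 17109 rpm at day 4; it was read in 49 of 56 cells at day 3 and 11 of 11 at day 4, and the 11 values of day 4 span less than those of day 3 (+2.61). In summed reads the difference was 0.66, short of the threshold. Its partner H2-Ab1 differed by -0.01 and the invariant chain Cd74 by +0.97. H2-DMa, which loads peptides on class II, was read in 35 of 56 cells at day 3 and 5 of 11 at day 4 (-3.41). The class I genes H2-D1 (+0.22), H2-K1 (-0.53) and B2m (-0.20) all differed by less than 1 and were read in all 11 cells of day 4.

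**Figure D4:**
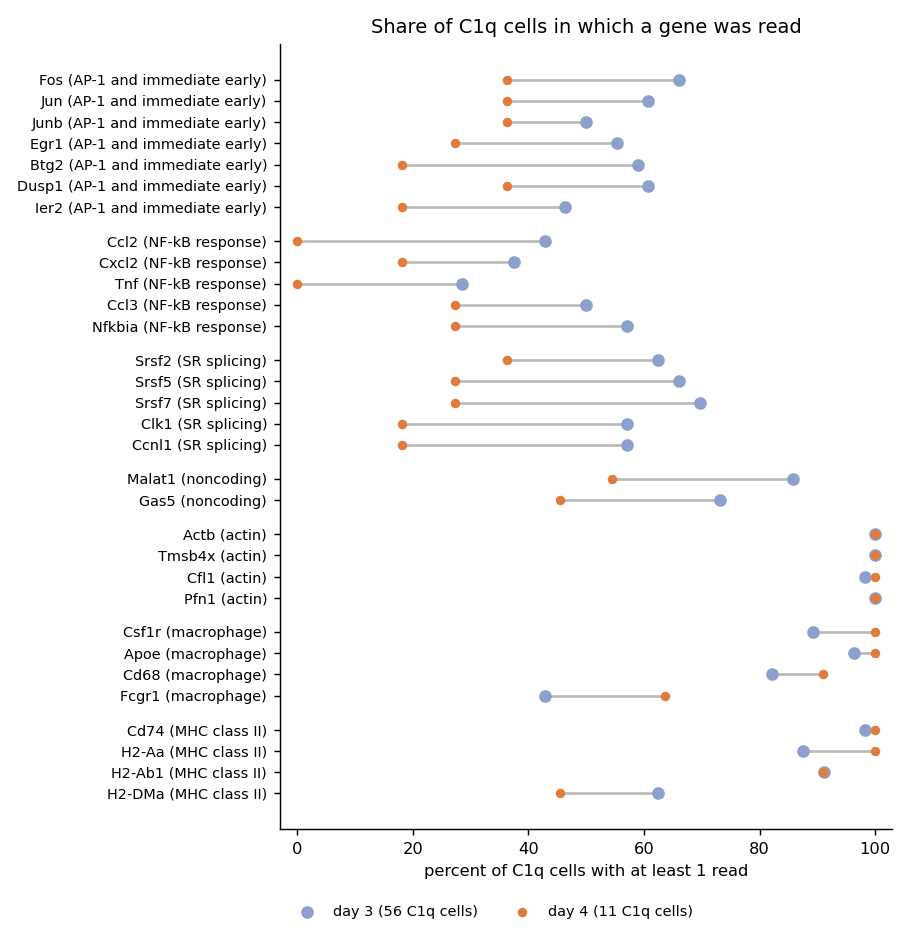
Percent of C1q cells with at least 1 read of selected listed genes at day 3 (56 cells) and day 4 (11 cells). Immediate early, NF-kB response, splicing and noncoding genes lie to the left at day 4, Ccl2 and Tnf at 0%, whereas Actb, Tmsb4x, Cfl1, Pfn1 and Cd74 were read in 55 or 56 of the 56 cells and in 11 of 11.

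Abundant housekeeping messages differed little. Actb had 186.4, 4119 and 14947 rpm (lowest, median and highest cell) at day 3 and 452, 6655 and 15773 rpm at day 4, a difference of +0.53, and Tmsb4x, thymosin β4, differed by -0.01, Pfn1, profilin, by -0.0021 and Cfl1, cofilin, by +0.74; of 9 actin cytoskeleton genes past the filter 1 was higher and 2 lower, beside 11.6% and 37.8% of all genes. Arpc1b, of the Arp2/3 complex, was lower, read in 50 of 56 cells at day 3 and 6 of 11 at day 4 (-2.69), and Tmsb10, another thymosin, was higher (+2.17). In summed reads Arpc1b differed by -0.18 and Tmsb10 by 1.79, and 1 of the 9 genes was higher and 0 lower, beside 18.2% and 29.8%. The ferritin chains Fth1 and Ftl1 differed by -0.06 and +0.63. All 76 genes of cytosolic ribosomal proteins passed the filter, 7 were higher and 14 lower, with a median of -0.02; in summed reads 2 were higher and 4 lower, with a median of 0.31, both shares below those of all genes on either scale. Rpl38 (+2.30) and Rplp1 (+1.95) lay at one end, and Rpl3 (-2.59) and Rpl27a (-2.51) at the other. Their pseudogene copies make single values uncertain. Counted cell by cell, the median C1q cell had reads of 67 of the 76 ribosomal protein genes at day 3 and 62 at day 4, of 9 and 8 of 11 actin cytoskeleton genes and of 13 and 11 of 18 lysosomal genes. The corresponding counts were 7 and 2 of 14 immediate early genes, 3 and 1 of 12 NF-kB response genes and 6 and 2 of 17 splicing genes, and fresh C1q cells had 12, 7 and 9 of these.

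**Figure D5:**
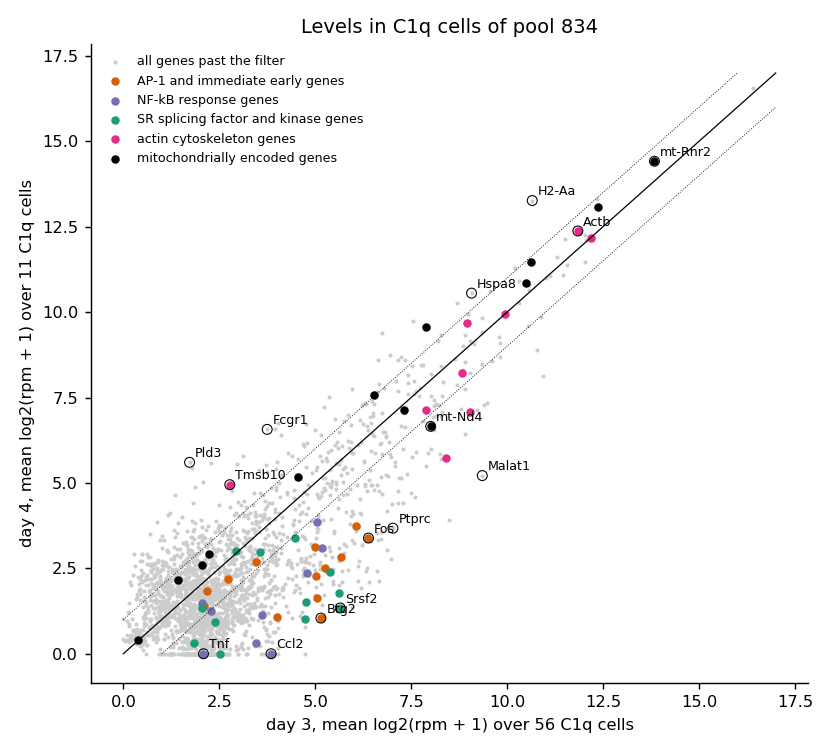
Mean log2(rpm + 1) of each gene past the filter in C1q cells of day 3 (horizontal) and day 4 (vertical), with members of 5 lists coloured, some genes named, the line of equality and dotted lines at a difference of 1. Immediate early, NF-kB and splicing genes lie mostly below the lower dotted line, and most mitochondrially encoded genes above the line of equality.

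Mitochondrially encoded genes had a higher median difference than all genes. Of 12 past the filter 5 were higher and 0 lower over all cells, beside 3.74% and 44.5% of all genes, with a median of 0.81 against -0.87. In summed reads the median was 0.60 against -0.07, and 0 of the 12 were higher (1 scaled by TMM, 3 by DESeq2 size factors) and 0 lower, beside 11.4% and 25.9% of all genes. mt-Rnr1 and mt-Rnr2, the mitochondrial ribosomal RNAs, were among the 10 largest increases (+1.71 and +1.24), with mt-Co1 and mt-Co3, subunits of cytochrome c oxidase. The level of mt-Co3 was low, with medians of 4.27 rpm at day 3 and 8.01 rpm at day 4. In C1q cells 2 of 13 were higher and 1 lower: mt-Rnr1 (+1.67) and mt-Nd2 (+1.05) against mt-Nd4 (-1.35), beside 11.6% and 37.8% of all genes. In summed reads mt-Nd2 alone was past the threshold (1.04). The nuclear genes of the respiratory chain lay near the rest in the share that was lower. Of 24 past the filter in C1q cells 5 were higher and 9 (37.5%) lower, with a median of -0.60, beside 11.6%, 37.8% and -0.53 for all genes. In summed reads 3 (12.5%) were higher and 8 (33.3%) lower, with a median of 0.16, beside 18.2%, 29.8% and -0.05. Ndufb8, of complex I, was read in 26 of 56 cells at day 3 and 0 of 11 at day 4, and Atp5a1, the α subunit of ATP synthase, in 38 of 56 cells at day 3 and 4 of 11 at day 4 (-2.64), whereas its β subunit Atp5b was higher (+1.78), read in 42 of 56 cells at day 3 and 9 of 11 at day 4.

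On the log scale, lysosomal, heat shock and unfolded protein response genes had members called in both directions, and 0 survival genes were higher. Of 18 lysosomal genes 3 were higher and 9 lower in C1q cells, with a median of -0.95, where 11.6% and 37.8% of all genes were; in summed reads 2 were higher and 2 lower, beside 18.2% and 29.8%, with a median of 0.16. Lyz2, lysozyme (+2.19), and Psap, prosaposin (+1.58), were higher, with medians of 860.3 and 3387 rpm for Lyz2. Lamp2 (-3.31), Grn, progranulin (-2.83), and Ctsz, cathepsin Z (-2.08), were lower. Among heat shock genes the inducible Hspa1a (-3.05) and its near-identical copy Hspa1b (-2.59) were lower, and the constitutive Hspa8 was higher (+1.48), read in all 11 cells of day 4. Of 8 heat shock genes past the filter 1 was higher and 4 lower, with a median of -0.97, beside 11.6% and 37.8% of all genes. Summed reads had 1 higher and 2 lower, with a median of 0.17, beside 18.2% and 29.8%. Rbm3, a cold-inducible RNA binding protein, was read in 19 of 56 cells at day 3 and 1 of 11 at day 4 (-1.82), and Cirbp did not pass the filter. Mcl1, a short-lived survival protein of the Bcl2 family, was read in 31 of 56 cells at day 3 and 3 of 11 at day 4 (-3.74), and Bcl2a1b, of the same family, in 25 of 56 cells at day 3 and 3 of 11 at day 4, though reads can be split among its near-identical copies; Bax, which promotes death, differed by -0.57. Of 6 apoptosis genes past the filter 0 were higher and 2 lower, beside 11.6% and 37.8% of all genes. In summed reads 1 was higher and 1 lower, beside 18.2% and 29.8%. Of 19 proteasome genes 1 was higher and 9 lower, and of 8 glycolysis genes 0 and 4, beside 37.8% of all genes lower; in summed reads 4 and 2 of them were lower, beside 29.8%. In the unfolded protein response list the folding enzymes Pdia3 (-2.62) and Pdia6 (-3.08) were lower, and the chaperones Hspa5 (+1.13) and Calr (+1.06) higher. Of its 7 genes past the filter 2 were higher and 3 lower, with a median of -0.90, beside 11.6% and 37.8% of all genes. Summed reads had 0 higher and 4 (57.1%) lower, with a median of -1.05, beside 18.2% and 29.8%. In summed reads Hspa5 (0.35), Calr (0.90), Hspa8 (0.22), Mcl1 (-0.73) and Ctsz (-0.49) were short of the threshold. Among C1q cells with at least 1000 genes Hspa5 turned to -0.30 and Psap to -0.63.

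The 10 largest increases in C1q cells were, but for Crip1, of genes read in under 50% of the cells of day 3. Pld3, a lysosomal nuclease of the phospholipase D family (chr7:27532000-27553218), went from 13 of 56 to 6 of 11 cells (+3.88), with a median of 0 rpm at day 3 and 593 at day 4 and highest cells of 2166 and 3160.3 rpm. Shares of 23.2% (13 to 36.4%) and 54.5% (23.4 to 83.3%) lie behind it, and their intervals overlap. Surf4, a cargo receptor of the early secretory pathway (+3.66), Sec61b, of the translocon (+2.90), and Prdx4, a peroxiredoxin of the endoplasmic reticulum (+3.31), were each read in 6 of 11 cells of day 4. The others were Tmem127 (+3.30), the galectin Lgals3 (+3.01), the chloride channel protein Clic4 (+2.97), the splicing protein Sfpq (+2.90), Fcgr1 and Crip1 (+2.74). Genes were named only if 50% or more of the cells of day 3 or of day 4 carried them, so but for Crip1 these met that rule through day 4.

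Interferon response genes were carried by single cells. In the 56 C1q cells of day 3 the 11 listed genes summed to at most 2159.9 rpm, with a median of 0. At day 4 the cell of well E7 held 7 of the 11 genes at 12868 rpm, among them Ifit2 at 5166, Irf7 at 2641 and Usp18 at 2122 rpm, and the cell of well C10 held 5 at 8644 rpm, of which 7841 were Rsad2, an antiviral radical SAM enzyme. The other 9 cells had at most 856 rpm. Bst2 (+1.48) and Isg15 (+1.92) were the 2 members past the filter.

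Genes that mark other cell types were also counted in C1q cells, and those of T and B cells were read in some at both timepoints. None of the listed monocyte, neutrophil, NK, innate lymphoid, epithelial, endothelial or erythroid genes passed the filter there, and no neutrophil, NK, endothelial or erythroid gene had a read in the 11 cells of day 4, where the summed level of the 10 epithelial genes was 0 in 8 cells and at most 1237 rpm. Of the 12 T cell genes Cd4, the co-receptor of helper T cells, alone was read at day 4, in 5 of 11 cells against 5 of 56 at day 3 (+2.79), while Cd3e, Cd3d and Cd3g had no read. Cd79b, a chain of the B cell receptor, was read in 7 of 56 cells at day 3 and 3 of 11 at day 4 (+0.63), and Naaa, of the dendritic cell list, in 15 of 56 cells at day 3 and 0 of 11 at day 4. Cd4 and Cd79b passed the filter through day 4 alone, and Naaa through day 3 alone. The direction of their differences therefore leans on that selection and is given as a description only.

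Over all cells the 10 lowest genes included Mbnl1 (-5.04), a splicing regulator that went from 61 of 82 to 5 of 19 cells, Unc93b1, Rps2-ps13, Ptprc, Gas5, Atp5a1, Eif4a1 (-3.78), the helicase of cap-dependent translation, Srsf2 and Rgs2 (-3.73), a brake on G protein signalling. Besides the mitochondrial genes, the 10 highest held Lars2 (+1.38), the mitochondrial leucyl-tRNA synthetase, Eif4g2 (+1.28), a translation factor, the peroxiredoxin Prdx1 (+1.21), Cox5b, Rpl35a and the kinase Lyn (+1.04). These values are over all cell types at once: 11 of 15 macrophage genes were lower in all cells, beside 44.5% of all genes, and 4 of 15 in C1q cells, beside 37.8%, but in summed reads 0 of 15 in either. Without the cells of no marker set 7.44% of genes were higher and 34.6% lower.

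The day 4 cells of pool IM790, some of which carried Xist, stand beside these as values only. Their 14 cells had a median of 2987 genes, and the 2 C1q cells among them 3705 and 3859 genes and 95.9% and 97.3% of the core genes, against at most 87.3% in the 11 C1q cells of day 4 in pool IM834. Depth, animal and library differ between the pools together, and after thinning to 100000 reads the medians were 2437.5 genes in pool IM790 and 1044 in pool IM834.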

How the data were processed

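Values were the deposited counts of reads per gene and cell, 1 column per cell. Per the labels and the study's methods, the authors trimmed reads to 75 bp, removed duplicates, aligned to GRCm38 with STAR and counted with HTSeq without regard to strand, leaving out cells under 1000 reads; their versions were not given in the sources used here. Without strand, overlapping genes cannot be told apart.

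Cells were grouped by timepoint and pool from their titles. The 96 ERCC rows and 1 vector row were dropped, and each column was divided by its total (rpm). Levels were means of log2(rpm + 1); genes with a read in 25% or more of the cells of day 3 or of day 4 were compared and called at a difference of 1. Named genes were the 10 highest and 10 lowest among genes with a read in 50% or more of the cells of day 3 or day 4, over all cells and in C1q cells, and members of the lists. A gene among them is not reported here. The members and lists were chosen with earlier results of these data known; the splicing list, the joint count of immediate early genes and Malat1, the counts of genes per cell in a list and the ATTTA windows were added after the values were seen. Of the genes read, 93.9% had an entry in the GENCODE annotation used. Of 46603 gene rows, 14650 had a read in these cells.

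No test was made, since each timepoint is 1 sample. Intervals are exact at 95% and cover counting error only, since a read without a molecular identifier is not 1 molecule. Alternatives were thinning to 100000 or 200000 reads, summed reads scaled by their total, by edgeR's TMM (4.0.16) or by DESeq2's size factors (1.42.0), other filters, pseudocounts and subsets of cells, and leaving out each day 4 cell. Scripts ran in Python 3.11.15 (pandas 2.3.3, numpy 2.4.6, scipy 1.17.1) and R 4.3.3 and were tested on simulated data.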

Additional observations from a re-analysis of the deposited data

Results flagged for a closer look

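A signal stood in a row that no comparison uses. The deposited table holds, beside the genes and the spike-in RNAs, a row for a vector consensus sequence, which was dropped before levels were computed. It took a median of 0.640% of a cell's counts at day 4 of pool IM834, against 0.238% at day 3. The lowest and highest cells were at 0.236% and 4.68% at day 4 and at 0.0374% and 2.65% at day 3, so the ranges overlap. In C1q cells the medians were 0.644% and 0.213%, and fresh and day 1 cells of the pool had 0.343% and 0.274%. The row was at 0 in 13 of the 14 day 4 cells of pool IM790 and in both of pool IM793, so it did not go with day 4 across pools. The row's part in the other results was not tested beyond leaving it out.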

How the results depend on the processing

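Cells are not replicates, no animal is named and 11 C1q cells of day 4 carry the comparison, so a share at day 4 has a wide interval and a gene that 1 or 2 cells hold at a high level can move a sum; reads on a gene cannot tell fewer molecules from poorer capture. No paired analysis was possible because no result comes from a test and the replicate numbers only name cells. The median difference in genes per cell (-542.5) ran from -487.5 to -398 under the other settings and from -592 to -489 without single day 4 cells; in C1q cells (-435.5) it ran from -488.5 to -412, and from -538.5 to -434.5. The core gene difference (-11.8 points) became -4.08 with the 90% core and ran from -13.3 to -11.5 without single cells. The difference in mitochondrial reads (1.58 points) was 0.955 in C1q cells.

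The percent of genes called higher and lower depended on the settings, as did the number of genes compared. Over all cells (3.74% and 44.5%) it was 0.792% and 9.16% of 14650 genes with no filter, 1.14% and 22% with a pseudocount of 10 rpm, and 15.8% and 16% against the median. The number of higher genes alone moved past 1.5 times with thinning (7.24%), in cells with 100000 reads (6.2%), in cells of a marker set (7.44%; like the setting against the median, chosen after seeing the data) and with the 10 day 4 cells whose second index day 3 shares (16.7%). In C1q cells (11.6% and 37.8%) it was 5.93% and 21.1% with a pseudocount of 10 rpm and 22% and 24.1% against the median; 3.05% of 12494 genes were higher and 12% lower with no filter, and 19.4% higher with shared second indices and 19.6% in cells with at least 1000 genes. Without single cells, a setting also added later, it ran from 10.6% to 13.2% and from 37.1% to 41.3%. Summed reads gave 15.8% and 59.6% (CPM), 17.4% and 58.4% (TMM) and 18.1% and 57.8% (DESeq2 size factors) over all cells, and 15.8% and 65.5%, 15.3% and 65.7%, and 16.3% and 65.2% in C1q cells. Of 83 genes followed in C1q cells, many differences depended on the scale: 49 moved by 1 or more in summed reads (CPM) and 34 with a pseudocount of 10 rpm. Of the 83, Adgre1 changed sign in summed reads (0.58, 0.53 and 0.63), Zfp36 with DESeq2 size factors (0.037), and Laptm5 (-0.19), Hspa5 (-0.30) and Psap (-0.63) in cells with at least 1000 genes. The cause was not tested. Of 20 genes followed over all cells 0 changed sign.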
